A study of Mus musculus with 5 samples.

Results

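Small heat shock proteins, the cofactor *Bag3* and the heat shock factors were examined in newborn lenses of *Celf1* knockout mice. The group holds 10 genes, 9 of them among the 19057 genes that the array annotation names, and every probe assigned to a member was read. The members were *Hspb8*, *Bag3*, *Hspb1*, *Hspb2*, *Hspb3*, *Hspb6*, *Hspb7*, *Hsf1*, *Hsf2* and *Hsf4*. There were 12 probes for these 9, with 2 probes each for *Hspb8*, *Hspb1* and *Hsf2*, and *Hsf1* was not analysed here.

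Lens RNA of mice at postnatal day 0 was read on 5 Illumina bead arrays, which report the fluorescence of bead-bound probes. The 3 mutant arrays, A, B and C, came from *Celf1* cKO/lacZKI mice that also carry the *Pax6GFPCre* driver, and the 2 control arrays, A and B, from mice labelled wild-type on a mixed C57BL/6J and FVB background. Mutant animals carry a germline *lacZ* knock-in allele that lacks *Celf1* function in every tissue, and a conditional allele that the driver deletes in the lens from its placode stage. Below, mutant values stand in the order A, B, C and control values in the order A, B. Each array pooled 2 lenses, and the methods describe the controls of the whole study as *Celf1* flox/flox animals, as *Pax6GFPCre* +/- carriers with *Celf1* +/+, or both, and the wild-type label does not say which of these genotypes the 2 control arrays hold.

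The arrays were checked before the members were read. *Celf1* on its probe with the highest mean among 3 of the same transcript record read 167, 173 and 154 in the mutant against 516 and 461 in the control, and all 3 fell, while a probe of another record lay at 0.47 on the log2 scale (adjusted p = 0.121). *Xist*, the RNA that coats an inactive X, was near 0 on mutant arrays A and B (-0.3 and -0.9) but reached 264 on C, with 432 and 441 in the control. *Eif2s3y*, a Y-linked gene, reached 207 on mutant array A and 177 on B but was 1.1 to 4.4 on the other 3 arrays. Mutant arrays A and B thus differ from all the others in these sex-linked genes, and each member is given below with mutant array C apart where it matters. Among lens markers, *Cryaa* lay between 21935 and 24620 and the fiber membrane gene *Lim2* between 13384 and 20389. Not all were bright: *Foxe3* read 22.3 to 41.3 and *Pax6* 2.7 to 10.6 on their brightest probes. Over the markers of other tissues, 0 of 3 retinal probes, 0 of 9 pigment cell, 0 of 8 blood vessel, 0 of 2 red blood cell, 0 of 9 leukocyte and 0 of 11 cornea and mesenchyme probes passed. The brightest probes summed, over the 5 arrays, to 12.6 to 31.1 for retina, 42.0 to 144 for pigment cells, 325 to 363 for vessels, 1247 to 4496 for red blood cells, 26.5 to 43.6 for leukocytes and 16.1 to 26.8 for cornea and mesenchyme. The highest red blood cell sum was that of mutant array A, and the highest retinal and pigment cell sums were those of control array B. Median intensities per array were 5.6 to 7.2.

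Small heat shock proteins are chaperones built around an α-crystallin domain. They hold unfolding proteins in a soluble state without using ATP, and the lens crystallins αA and αB belong to the same family. HSPB8 works together with BAG3, which links it to HSP70 and directs misfolded proteins to selective autophagy. HSPB2, HSPB3, HSPB6 and HSPB7 are best known from striated and smooth muscle. Heat shock factors are transcription factors that bind inverted repeats of the letters GAA. HSF1 drives the acute response to heat and proteotoxic stress, HSF2 acts mainly in development, and HSF4 is the heat shock factor of the postnatal lens, whose mutation causes cataract in mice and in people.

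Promoters are shown because such repeats are the letters that heat shock factors bind. RefSeq windows of 300 bases (250 before and 50 after the annotated start, build GRCm38.p6) were found for 7 members, 8 windows in all because *Hspb6* has 2, and *Hspb2*, *Hsf1* and *Hsf4* were not matched. They were searched for GAANNTTC and for TTCNNGAA. Each of these reads the same on both strands, and where they overlap they share a GAA or TTC unit. A match occurred in 5 of the 8 windows, those of *Hspb8*, *Bag3*, *Hspb1*, *Hspb3* and the second window of *Hspb6*, and in 15.1% of all 32851 windows. In 4 of them the match had the same letters, GAAGTTTC, which 1.21% of all windows hold on either strand. These 4 are shown with matches in capitals, each 5′ to 3′ on the gene's own strand. *Hspb1* has a second match there, GAACCTTC. Positions count from the annotated start, with 1 as the first transcribed base.
*Hspb8*, chr5:116422835-116422902, minus strand, positions -38 to 30: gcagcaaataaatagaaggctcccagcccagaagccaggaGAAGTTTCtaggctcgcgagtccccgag
*Bag3*, chr7:128523603-128523632, plus strand, positions 21 to 50: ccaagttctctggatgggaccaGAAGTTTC
*Hspb1*, chr5:135887762-135887869, plus strand, positions -157 to -50: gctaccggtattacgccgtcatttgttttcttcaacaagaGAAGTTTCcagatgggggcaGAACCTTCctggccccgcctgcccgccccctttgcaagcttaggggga
*Hspb6*, chr7:30553141-30553228, plus strand, positions -160 to -73: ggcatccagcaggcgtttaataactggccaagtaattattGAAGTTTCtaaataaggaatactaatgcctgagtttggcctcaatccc

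The match lies upstream of the start in *Hspb1* and *Hspb6* and downstream of it in *Hspb8* and *Bag3*. These 4 genes share the letters but did not share a change: as given below, *Hspb8* rose, and *Bag3*, *Hspb1* and *Hspb6* did not pass the test. A match of letters is no evidence of a bound site.

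*Hspb8* rose in the mutant lens, *Hsf4* fell, and no other member passed the test. Of the 12 member probes, 3 passed an adjusted p under 0.05, which is 25% of them against a background of 4.28% of all 34885 probes (limma over all probes, Benjamini-Hochberg adjustment). The 2 that rose were both of *Hspb8*, against 2.4% of all probes, and the 1 that fell was *Hsf4*, against 1.89%. Groups of arrays did not overlap for 5 member probes, 2 with all mutant arrays above and 3 with all below, where 30.9% of all probes have groups that do not overlap. At the study's thresholds of an unadjusted p under 0.05 and a change of at least 2.0-fold or 2.5-fold, only the 2 *Hspb8* probes counted among members, beside 0.662% and 0.267% of all probes. The members' median log2 fold change was -0.11, and that of all probes 0.00. All fold changes are mutant minus control on log2 of the intensity plus 36.5, a scale that understates changes of dim probes, and in whole lenses fewer cells of a type and less RNA per cell cannot be told apart.

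**Figure D1:**
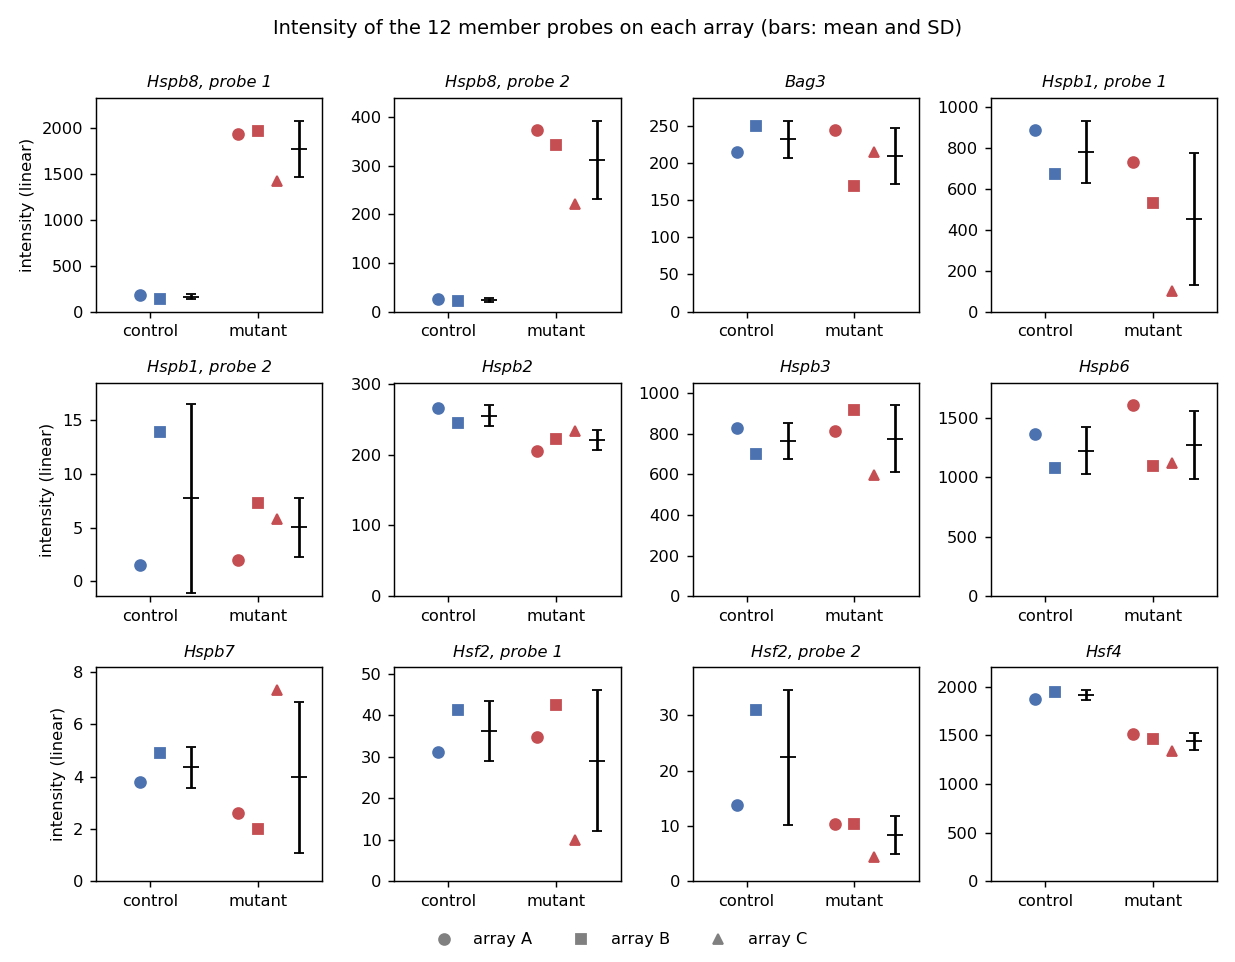
Intensity on a linear scale of each of the 12 member probes on every array, with the control arrays on the left of each panel (blue) and the mutant arrays on the right (red), the array letter as the symbol, and the group mean with its SD as the bar. In both *Hspb8* panels all 3 mutant arrays lie far above the controls, in the *Hsf4* panel they lie below, and in the panel of *Hspb1* probe 1 mutant array C alone is low.

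*Hspb8* encodes the small heat shock protein that pairs with BAG3. Its brighter probe read 1941, 1970 and 1426 in the mutant against 179 and 141 in the control. Every mutant array was above both controls, and mutant array C was the lowest of the 3. The means were 1779 ± 306 (SD, n = 3) and 160.0 ± 27.3 (SD, n = 2), so that the log2 fold change was 3.20 (standard error 0.16, 95% interval 2.84 to 3.56, adjusted p = 4.19e-04). On this scale it was the largest rise of all 34885 probes, and it ranked 5 by p.

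The dimmer *Hspb8* probe, designed on the same transcript record, gave 373, 344 and 222 in the mutant against 26.1 and 21.6 in the control. The groups did not overlap here either, and array C was again the lowest mutant. Its log2 fold change was 2.51 (standard error 0.18, 95% interval 2.08 to 2.93, adjusted p = 0.00115), which placed it 5 among all rises. The smaller value goes with a dimmer control level, which 72.8% of probes did not reach: without the added constant the ratio of means was 13.1 for this probe and 11.1 for the brighter one. Both probes passed in every alternative in which they were tested, 17 for the brighter (log2 fold change 2.85 to 3.35, adjusted p up to 0.0122) and 15 for the dimmer (2.10 to 3.02, adjusted p up to 0.0269). Mutant array C alone against the controls gave 2.90 and 2.10, and mutant arrays A and B without C 3.35 and 2.71. *Hspb8* is among the genes that the study itself picked from these arrays, so its place at the top is a description and no independent evidence.

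*Bag3*, the cochaperone that binds HSPB8 and HSP70, did not follow *Hspb8*. Its probe read 244, 169 and 215 in the mutant against 214 and 250 in the control. The groups overlapped, with mutant array A close to the higher control and mutant array B the lowest of all. The log2 fold change was -0.14 (standard error 0.14, 95% interval -0.45 to 0.18, adjusted p = 0.722), so the interval leaves out a rise above 0.18 on this scale. *Bag3* passed in 0 of 17 alternatives, whose values ran from -0.24 to -0.01. *Bag3* was brighter than 90.7% of probes.

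**Figure D2:**
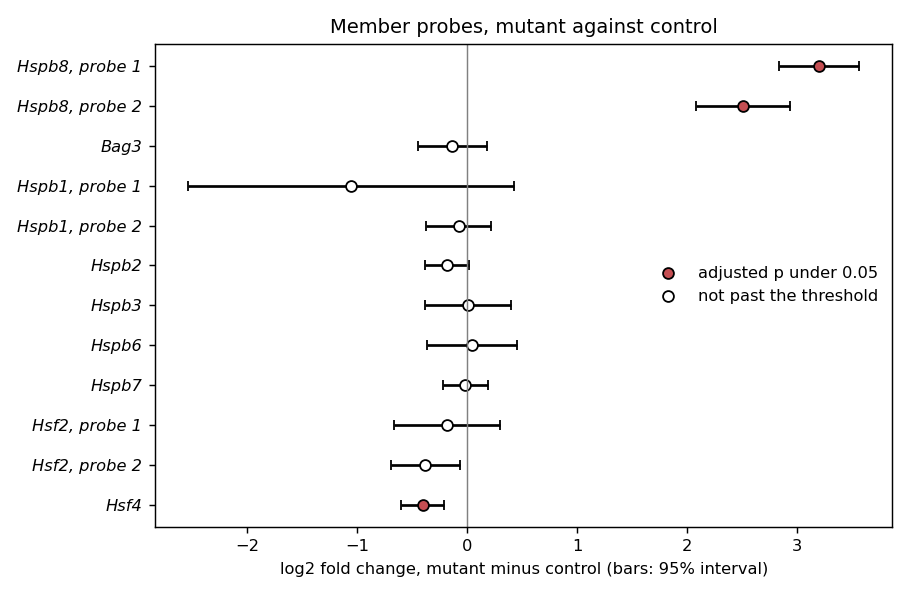
Log2 fold change of each member probe, mutant minus control, on the horizontal axis with its 95% interval from limma; filled points passed an adjusted p under 0.05. Both *Hspb8* probes stand apart at 3.20 and 2.51, *Hsf4* lies at -0.41, and the widest interval is that of *Hspb1* probe 1, from -2.53 to 0.42.

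*Hspb1*, which encodes HSP25, a stress-induced chaperone that also binds actin, differed more among mutant arrays than between groups. Its brighter probe read 732, 532 and 99.5 in the mutant against 890 and 674 in the control. Mutant array A lay between the controls, and array C was far below all 4 others. The log2 fold change over all arrays was -1.06 (standard error 0.64, 95% interval -2.53 to 0.42, adjusted p = 0.515), which ranked 105 among all falls by size and did not pass. With mutant array C alone against both controls it was -2.58 (adjusted p = 0.00147), a comparison that has no mutant replicate and takes its spread from the controls, and without array C it was -0.30 (adjusted p = 0.524). Array C is the mutant array whose *Xist* and *Eif2s3y* resemble those of the controls. Over all probes its log2 values correlated at 0.988 and 0.990 with mutant arrays A and B, which correlated at 0.995 with each other. Its median intensity, 7.2, was the highest of the 5 arrays. Whether any of these differences bears on *Hspb1* was not tested. The second *Hspb1* probe, of the same record, read only 1.5 to 13.9 over the 5 arrays, near the median probe, and so carries no check of the first.

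*Hspb2*, *Hspb3*, *Hspb6* and *Hspb7*, the small heat shock genes best known from muscle, did not pass the test on any probe. *Hspb6*, which encodes HSP20, a phosphoprotein of relaxing smooth muscle, was the brightest of them. It read 1602, 1092 and 1116 in the mutant against 1362 and 1081 in the control, with a log2 fold change of 0.04 (95% interval -0.37 to 0.45, adjusted p = 0.950). Its groups overlapped throughout. *Hspb3*, whose product forms complexes with HSPB2, read 814, 915 and 595 in the mutant against 826 and 699 in the control, with a log2 fold change of 0.01 (95% interval -0.39 to 0.40, adjusted p = 0.994). Mutant arrays lay on both sides of the controls, and array C was the lowest.

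*Hspb2*, a partner of HSPB3 and the direct chromosomal neighbour of the αB-crystallin gene *Cryab*, read 205, 222 and 233 in the mutant against 265 and 244 in the control. All mutant arrays were below both controls, by little. The log2 fold change was -0.18 (95% interval -0.38 to 0.02, adjusted p = 0.379), and it passed in 0 of 17 alternatives. *Cryab* itself lay at 8517 to 9133 in the mutant and at 10657 and 11040 in the control, a difference of -0.29 on the log2 scale (adjusted p = 0.0969). Neither of these neighbours passed. *Hspb7*, a heart and muscle chaperone that binds filamin C, read 2.0 to 7.3 on all 5 arrays, a mean level above only 40.1% of probes, and its log2 fold change was -0.02 (95% interval -0.22 to 0.19, adjusted p = 0.964). A change in so dim a probe may not be detectable on these arrays.

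Muscle markers were read beside these genes. Of 15 probes for 9 skeletal muscle genes 0 passed, and the brightest probes of these genes summed to 68.3 to 86.0 in the mutant and 68.3 and 73.6 in the control. Over the 5 arrays *Acta1*, *Ckm*, *Myl1*, *Tnnt3* and *Tnni2* read between -2.2 and 7.2 on these probes. *Mylpf*, *Myog*, *Myh8* and *Des* read higher, between 5.6 and 26.5. Of 16 probes for 7 heart and smooth muscle genes 1 was higher, and the brightest summed to 592 to 829 in the mutant and 604 and 603 in the control. Nearly all of that sum was *Acta2*, smooth muscle actin, which read 794, 573 and 799 in the mutant against 582 and 568 in the control, a log2 difference of 0.30 (adjusted p = 0.394). The probe that passed was a dimmer one of *Acta2*, at 0.56 (adjusted p = 0.0304). The other 6 genes of that list, among them *Myh11* and *Tagln* of smooth muscle, read between -2.7 and 11.8 on their brightest probes. The part of these cells in the signal of *Hspb2*, *Hspb3* and *Hspb6* was not tested.

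*Hsf4*, the lens heat shock factor, fell. Its probe read 1513, 1462 and 1340 in the mutant against 1879 and 1950 in the control. Every mutant array was below both controls, and the spread within each group was small beside the gap. The means were 1438 ± 89.1 (SD, n = 3) and 1914 ± 49.8 (SD, n = 2), and the log2 fold change was -0.41 (standard error 0.08, 95% interval -0.60 to -0.21, adjusted p = 0.0402), or 1.32-fold lower. The call lies close to the threshold. It held in 5 of 17 alternatives, and the values of all 17 ran from -0.50 to -0.36 with adjusted p from 0.0257 to 0.210. Leaving out any of the 5 arrays ended the call, with adjusted p of 0.0742, 0.130 and 0.0694 without mutant arrays A, B and C and of 0.0833 and 0.194 without control arrays A and B.

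*Hsf2*, a factor of embryonic and germ cell development, was dim. Its brighter probe read 34.9, 42.4 and 10 in the mutant against 31.2 and 41.3 in the control, with a log2 fold change of -0.18 (95% interval -0.67 to 0.30, adjusted p = 0.762). Mutant arrays A and B lay among the controls or just above, and array C was the lowest, as it was for *Hspb1*. The other probe, of a different transcript record, read 10.4, 10.3 and 4.4 in the mutant and 13.8 and 31.0 in the control. Its log2 fold change was -0.38 (95% interval -0.69 to -0.07, unadjusted p = 0.0228, adjusted p = 0.215), and the controls differed from each other by more than the lower of them differed from mutant arrays A and B.

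**Figure D3:**
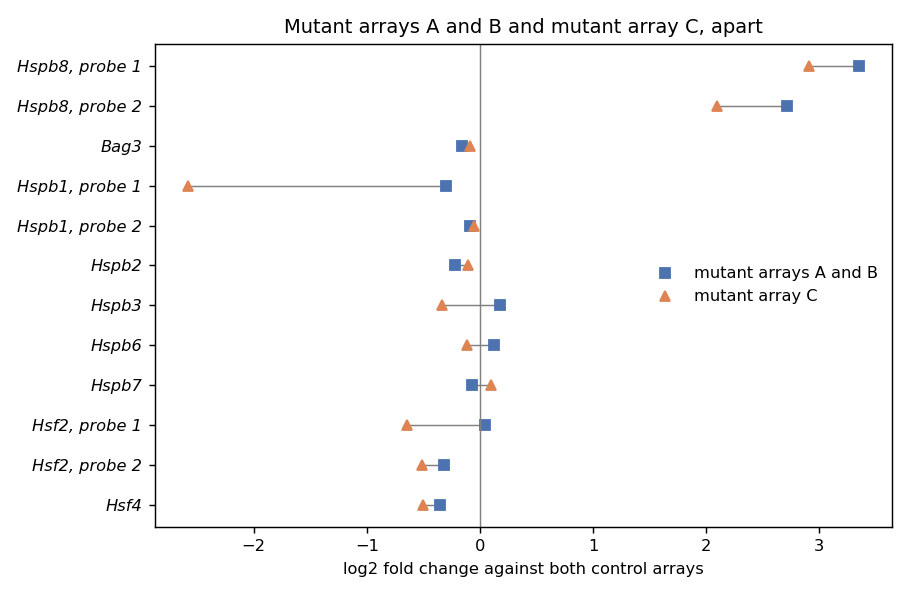
Log2 fold change against both control arrays, on the horizontal axis, computed from mutant arrays A and B (squares) and from mutant array C alone (triangles) for each member probe. The 2 values lie close together for *Bag3* and *Hsf4* and far apart for *Hspb1* probe 1, at -0.30 and -2.58, while *Hspb8* is high in both.

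Genes that work beside the members were read from 5 lists. The list of other small heat shock proteins held *Cryaa*, *Cryab*, *Hspb9*, *Hspb11* and *Odf1*, and 0 of their 6 probes passed (median log2 fold change -0.01). *Hspb11* is listed with them, but an α-crystallin domain in its product was not checked. *Cryaa*, the αA-crystallin gene, lay at -0.10 on the log2 scale (adjusted p = 0.613). The testis genes *Hspb9* and *Odf1* read at most 9.8. *Cryaa* and *Cryab* lay below both controls on every mutant array without passing, but under quantile normalization *Cryaa* turned to 0.06 and *Cryab* shrank to -0.10, so no direction is given for them.

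The list of BAG family genes and partners of the HSPB8 and BAG3 complex gave 4 of 30 probes higher and 0 lower. That is 13.3%, beside 4.28% of all probes in either direction, and the median was 0.05. *Sqstm1*, the autophagy receptor p62 that gathers ubiquitinated proteins, read 2778, 2895 and 2147 in the mutant against 678 and 764 in the control. Its log2 fold change was 1.79 (standard error 0.14, adjusted p = 0.00125), and it passed in 17 of 17 alternatives, but the study picked it from these arrays. *Bag4*, which binds HSP70 and death receptors, read 120, 119 and 120 in the mutant against 87.1 and 68.0 in the control, a difference of 0.46 on the log2 scale (adjusted p = 0.0349), and passed in 8 of 17 alternatives. Its second probe was near background at -0.12 (adjusted p = 0.608), and the mean of both gave 0.17 (adjusted p = 0.297). The other 2 probes were the dimmer ones of *Map1lc3a*, a marker of autophagosome membranes, and of *Stub1*, the ubiquitin ligase CHIP, at 0.48 and 0.50. Their brighter probes did not pass, at 0.27 (adjusted p = 0.438) and 0.01 (adjusted p = 0.981). *Hspa8*, the constitutive HSP70 of the complex, was at -0.13 (adjusted p = 0.485). Without mutant array A or C the list had 2 probes that passed, and without mutant array B or control array B 1.

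The chaperone genes that HSF1 induces had a median of 0.03. Of their 26 probes 1 was higher and 0 lower, or 3.85%, near the 4.28% of all probes that passed in either direction. That probe was *Dnajb1*, an HSP40 that delivers clients to HSP70. It read 5813, 5142 and 4940 in the mutant against 3666 and 2862 in the control, a difference of 0.70 on the log2 scale (standard error 0.12, adjusted p = 0.0222). The call was lost without mutant array A, mutant array B or control array B. *Hspa1a* and *Hspa1b*, the most strongly heat-induced HSP70 genes, read between -7.8 and 9.4 on their brightest probes, and their transcripts are nearly identical, so their probes cannot be told apart with certainty. *Serpinh1*, the collagen chaperone HSP47, lay at 0.38 (adjusted p = 0.0792) and *Fkbp4*, a cochaperone of HSP90, at 0.33 (adjusted p = 0.222). Among other heat shock factors and regulators of HSF1, 0 of 15 probes passed, with a median of 0.03.

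Genes that depend on HSF4 in the mouse lens gave 0 of 17 probes higher and 7 lower, or 41.2%. The share over all probes was 4.28% in either direction. The list median was -0.29, the value of the *Cryab* probe, which shrank to -0.10 under quantile normalization. The list does not give the direction in which HSF4 acts on each gene. Of the 13 genes, 5 fell on their brightest probe. *Skap2*, an adaptor protein of the actin cytoskeleton, read 195, 186 and 106 in the mutant against 563 and 422 in the control, which is -1.43 on the log2 scale (standard error 0.22, adjusted p = 0.0120), which did not pass without control array A or B. *Bfsp2*, a beaded filament protein, fell by 0.50 (adjusted p = 0.0486), close to the threshold, and passed in 3 of 17 alternatives. The other genes that fell were the γ-crystallins *Cryge* and *Crygf* at -1.56 and -2.73, which are near copies of each other, and the nuclease gene *Dnase2b* at -2.52 with all 3 of its probes. *Cryge* did not pass without mutant array B (adjusted p = 0.0540), control array A (0.109) or control array B (0.206), nor *Crygf* without control array A (0.0980) or B (0.206), nor the brightest *Dnase2b* probe without control array B (0.0505). The study itself chose *Crygf* and *Dnase2b* from these same samples, so on these arrays they are no independent evidence. For *Dnase2b* the paper also reports lower RNA by RT-qPCR and enrichment of its mRNA in Celf1 pulldowns from wild-type lens. It further reports that added Celf1 raised a reporter RNA carrying the *Dnase2b* 3′ untranslated region. The remaining crystallins *Cryab*, *Cryga*, *Crygb*, *Crygc*, *Crygd* and *Crygs* lay between -0.45 and -0.05 and did not pass, nor did *Vim*, an intermediate filament of the lens, at 0.10, or *Fgf7*, a growth factor at the level of background, at 0.05. Without control array A 3 probes of the list passed and without control array B 2, all of them probes of the single gene *Dnase2b*. Of 10 probes for 8 lens marker genes 2 fell, those of *Bfsp2* and *Lim2*, and 8 did not pass. The brightest probes of these 8 genes summed to 73262 to 79933 in the mutant and to 89725 and 100278 in the control. Most of each sum came from *Cryaa*, *Mip*, *Lim2* and *Crybb2*, of which only *Lim2* passed. *Cryaa* turned to 0.06 under quantile normalization, so the sums depend on how the brightest probes are scaled. The part of *Hsf4* in these values was not tested.

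**Figure D4:**
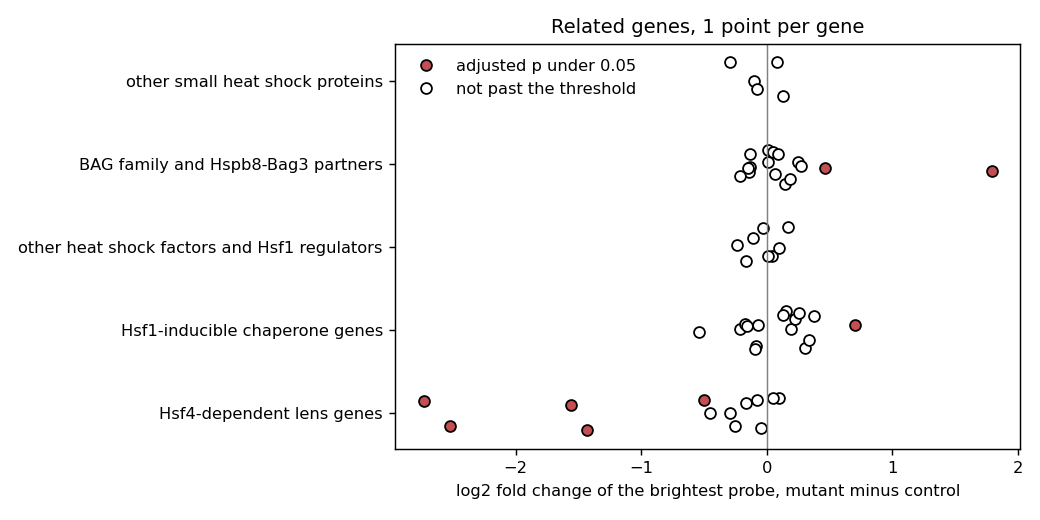
Log2 fold change, mutant minus control, of the brightest probe of each gene in the 5 lists, 1 point per gene with vertical scatter for legibility; filled points passed an adjusted p under 0.05. The filled point at the far right is *Sqstm1* at 1.79, and the 5 filled points of the lowest row, from -2.73 to -0.50, are *Crygf*, *Dnase2b*, *Cryge*, *Skap2* and *Bfsp2*.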

How the data were processed

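RNA of newborn mouse lenses, 2 lenses per replicate, was read on Illumina MouseWG-6 v2.0 arrays, 3 mutant and 2 control. The authors corrected the background with lumi and normalized by the Rank Invariant method (versions not given in the sources used here), and the deposited values are linear intensities, some below 0, without detection p-values. Precision is limited by the 5 arrays, and an exact permutation test of 3 against 2 cannot go below p = 0.1.

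Probes were named from the platform annotation: 34885 of 45281 carried 1 gene symbol and were tested, 18 carried several and 10378 none. Intensities plus 36.5 were log2 transformed, and the groups were compared by limma's moderated two-sided test (version 3.58.1, run under R 4.3.3). No block was used. Adjusted p-values follow Benjamini-Hochberg over all 34885 probes, and 0.05 was the threshold. The same code was tested on simulated data. Array letters were not used as pairs: the deviations of arrays with the same letter correlated at -0.00028 (A) and 0.02 (B). Whether replicates were separate litters is not given, so p-values measure only the spread between these samples.

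The members and lists were chosen with earlier results of these data known. Named were all members, up to 3 genes per list with the smallest p, and the 5 genes most like *Hspb8*. Other genes of the lists, and the muscle and lens markers, were named after their values were seen. A gene's brightest probe is that with the highest mean intensity. There were 17 alternatives, of which those on single lists and named genes were chosen after seeing the data. Promoters are from RefSeq (GRCm38.p6), the shared letters GAAGTTTC were counted after they were seen in the members, and figures were drawn with matplotlib 3.10.9 in Python 3.11.15.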

Additional observations from a re-analysis of the deposited data

How the results depend on the processing

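The number of member probes that passed was 2 or 3 under each of 17 alternatives, where the reported count was 3, and no member that passed changed direction. The same count did not always mean the same probes. The brighter *Hspb8* probe passed in 17 of 17 alternatives and the dimmer in all 15 that tested it, but *Hsf4* in only 5 of 17. Over all probes the count was 1494. It was 890 with a constant of 16 before log2 and 896 with the mean of all probes of a gene, which tests fewer features. Leaving out single arrays gave 420 to 1494, the lowest without control replicate B, and 728 without mutant replicate B. The probes of the 5 lists that passed numbered 12 of 93, and 3 to 9 without single arrays, with 6 without mutant replicate B, 7 without control replicate A and 3 without control replicate B. These counts rest on fewer arrays, and any other cause was not tested. With the array letter as a replicate block 2227 probes passed over all, 2 among members and 13 in the lists. The letters share only a label, and *Hsf4* then had an adjusted p of 0.0650 (limma). Dim probes are limited by background: *Hspb7* lay below the middle of all probes and the dimmer probe of *Hspb1* close to it.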

Other observations

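The genes whose profile over the 5 arrays was most like that of the brighter *Hspb8* probe were *Cdkn1a*, *Arhgap12*, *Fabp3*, *Ddit3* and *Sptbn1*. Likeness was the root mean square difference of log2 values, each centred on the control mean. It came to 0.435, 0.535, 0.800, 0.813 and 0.866 in that order. This measure depends largely on the size of the rise, and the 5 ranked 3, 4, 6, 7 and 8 among the rises of all probes. Shared regulation was not tested. All 5 are among the genes the study picked from these arrays. *Cdkn1a*, which encodes the cell cycle inhibitor p21, read 285, 233 and 338 in the mutant against 13.2 and 5.9 in the control, which is a log2 difference of 2.80 (limma, adjusted p = 4.48e-04). Its highest mutant array was C, where *Hspb8* was lowest. *Ddit3*, the stress-induced factor CHOP, read 400, 356 and 374 in the mutant against 61.2 and 49.0 in the control, which is a log2 difference of 2.17 (limma, adjusted p = 4.19e-04), the smallest p of all probes. *Fabp3*, a fatty acid binding protein gene with 1 probe, lay at 2.18. These values are of the brightest probe. All 3 *Cdkn1a* probes and both *Ddit3* probes rose, but *Arhgap12*, at 2.52 on its brightest probe, lay at -0.10 and 0.17 on the other 2, which were near background and did not pass. *Sptbn1*, a spectrin gene with 7 probes, had probes that went opposite ways. Its brightest, of the same transcript record as 2 dim ones, rose by 2.12, while 2 probes of its other record fell by 1.03 (limma, adjusted p = 0.00350) and 0.61 (adjusted p = 0.0263), and 4 dim probes of both records did not pass. The brighter of the 2 that fell read 408, 473 and 472 in the mutant against 871 and 1047 in the control. The mean over all *Sptbn1* probes was 0.07 (adjusted p = 0.680).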
